A study of Mus musculus with 42 samples.

Results

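The nuclear-encoded subunits of the mitochondrial respiratory chain were followed through the stomach, small intestine and colon of adult mice. Members were the genes whose symbol in the array annotation begins with the stems used for subunits of complexes I to V (Ndufa, Ndufb, Ndufs, Ndufv and Ndufc with a number, Ndufab1, Sdha to Sdhd, Uqcr, Cox4 to Cox8, Cyc1 and Atp5), each read from its brightest probe set with a single symbol. The rule found 82 of 22180 measured genes. By the stem of the symbol alone, 34 were counted in complex I, 4 in complex II, 9 in complex III, 17 in complex IV and 18 in complex V. Ndufa4 and Ndufa4l2 are thus counted in complex I by name only. Of the 82, 80 are protein-coding genes and 2 are pseudogenes, Atp5c1-ps (counted in complex V) and Uqcrh-ps1 (counted in complex III). The rule read symbols only, but it was set with earlier results of these data known. The probe set of a gene was picked by its mean level over all arrays.

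The respiratory chain sits in the inner mitochondrial membrane. Complexes I and II pass electrons from NADH and succinate to ubiquinone, complex III passes them to cytochrome c and complex IV to oxygen, and the protons pumped on the way drive complex V, the ATP synthase. Most subunits are present in every cell that respires, but several complex IV subunits exist as gene pairs, with a form found widely and a form best known from heart, skeletal muscle, brown fat or testis.

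RNA was measured on 42 Affymetrix mouse arrays in 15 groups, from untreated mice, not selected for sex, that were at least 7 to 8 weeks old. From Lgr5-EGFP-IRES-CreERT2 mice (IRES below), in which green fluorescence reports the stem cell receptor Lgr5, came Lgr5Hi and Lgr5Lo cells of pylorus (4 arrays each), small intestine (2 each) and colon (3 each), with 2 whole pylorus, 2 whole colon, 1 whole small intestine and 2 small intestinal crypt arrays. From Lgr5-EGFP-DTR mice (DTR below), in which the Lgr5 locus drives a fluorescent diphtheria toxin receptor, came pyloric Lgr5Hi, Lgr5Lo and Lgr5Neg cells (3 arrays each). Wild-type mice (WT) gave pyloric cells sorted with an antibody to the water channel Aqp5, as Aqp5Pos and Aqp5Neg cells (4 arrays each). Replicates are called biological in the titles, without naming the animals, and no toxin was given.

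Levels are log2 intensities, so a difference of 1 is a doubling, and they compare arrays for 1 gene, not genes with each other. Lgr5 followed the gates, at 8.66 to 8.81 in DTR Lgr5Hi, 6.15 to 6.82 in Lgr5Lo and 4.41 to 4.87 in Lgr5Neg arrays. Some unsorted arrays stood apart from their labels: whole colon replicate 1 had a parietal marker mean of 9.30 against 5.04 in replicate 2, and the crypt arrays read 4.81 and 5.04 for Lgr5 against 7.09 in whole small intestine. They enter no comparison directly, but they add to the spread of the IRES fit. For the 9 DTR arrays the titles were followed, although another label gives the IRES line as their model. Array medians over all probe sets ran from 3.82 to 4.25. Of the members, 71 were above the highest of these medians in every group mean, and 5 (Atp5c1-ps, Cox7b2, Cox8c, Ndufa4l2 and Uqcrh-ps1) were below it in every group mean.

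Promoters are shown for the complex IV genes that varied most between organs, for the counterpart of the most variable one, and for the member with the largest fall in DTR mice. Each runs from 250 bases before to 50 bases after the annotated start, from RefSeq on GRCm38.p6. Capitals mark matches to a searched motif on either strand. Cox7a1 (chr7:30183921-30184220, plus strand) encodes the muscle-type form of a small complex IV subunit, and Cox7a2 (chr9:79759804-79760103, minus strand) encodes the widely found form. Cox6b2 (chr7:4753045-4753344, minus strand) is the testis-type counterpart of Cox6b1, Cox8b (chr7:140900397-140900696, minus strand) is the muscle-type counterpart of Cox8a, and Ndufs4 (chr13:114388045-114388344, minus strand) is an accessory subunit of complex I.
Cox7a1 promoter: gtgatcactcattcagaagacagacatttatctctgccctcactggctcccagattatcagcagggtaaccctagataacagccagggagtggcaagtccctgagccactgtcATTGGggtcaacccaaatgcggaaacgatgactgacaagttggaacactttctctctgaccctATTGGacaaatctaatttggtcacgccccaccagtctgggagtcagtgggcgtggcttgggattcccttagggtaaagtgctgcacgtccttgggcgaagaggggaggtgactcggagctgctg
Cox7a2 promoter: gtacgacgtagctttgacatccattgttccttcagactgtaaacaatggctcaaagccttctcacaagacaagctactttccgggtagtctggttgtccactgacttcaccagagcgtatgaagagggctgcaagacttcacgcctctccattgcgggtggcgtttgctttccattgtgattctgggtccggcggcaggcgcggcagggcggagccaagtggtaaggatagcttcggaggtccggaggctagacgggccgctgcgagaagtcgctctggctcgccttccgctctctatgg
Cox6b2 promoter: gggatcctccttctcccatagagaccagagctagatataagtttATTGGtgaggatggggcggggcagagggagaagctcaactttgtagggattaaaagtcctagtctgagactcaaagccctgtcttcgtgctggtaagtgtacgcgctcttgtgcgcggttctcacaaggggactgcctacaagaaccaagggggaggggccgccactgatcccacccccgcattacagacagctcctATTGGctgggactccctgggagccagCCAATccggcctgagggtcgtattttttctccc
Cox8b promoter: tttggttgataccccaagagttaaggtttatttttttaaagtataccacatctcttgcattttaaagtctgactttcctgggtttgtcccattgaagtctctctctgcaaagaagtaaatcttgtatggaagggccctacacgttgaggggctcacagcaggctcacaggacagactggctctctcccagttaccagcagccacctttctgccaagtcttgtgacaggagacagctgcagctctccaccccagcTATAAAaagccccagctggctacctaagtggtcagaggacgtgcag
Ndufs4 promoter: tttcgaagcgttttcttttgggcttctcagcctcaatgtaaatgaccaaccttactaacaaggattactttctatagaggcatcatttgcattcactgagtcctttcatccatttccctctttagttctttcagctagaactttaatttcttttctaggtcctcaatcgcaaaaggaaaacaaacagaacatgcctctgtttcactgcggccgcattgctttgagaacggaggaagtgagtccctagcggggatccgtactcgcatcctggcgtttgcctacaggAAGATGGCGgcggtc

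The Cox7a1 window held 2 CCAAT motifs (read as ATTGG on the printed strand) and the Cox6b2 window 3. That of Cox8b held a TATAAA, that of Ndufs4 the YY1 motif AAGATGGCG, and that of Cox7a2 none of the 6 motifs searched. GC content was 53.0% for Cox7a1, 56.7% for Cox7a2, 55.7% for Cox6b2, 48.3% for Cox8b and 45.3% for Ndufs4, against a median of 52.7% over all windows. RefSeq windows were matched for 65 of the 82 members and for 27025 genes in all. The NRF1 motif (GCGCA and GCGC with 1 base between), bound by a regulator of respiratory genes, was in 23.1% of the members' windows (15 of 65) and in 5.19% of all genes' windows. The ETS motif CCGGAAG was in 26.2% against 9.93%, the YY1 motif in 9.23% against 1.64%, and AAGGTCA, bound by oestrogen-related receptors, in 9.23% against 5.38%. CCAAT was in 40.0% against 41.1% and TATAAA in 12.3% against 15.7%. Both strands were searched, matches to different motifs may share bases, and a match describes the letters, not a bound site. Among the 24 members with a window that fell in DTR Lgr5Hi against Lgr5Neg cells the NRF1 motif was in 16.7%, and among the other 41 in 26.8%.

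The median over the 82 members was 9.22 ± 0.09 (SD, n = 4) in IRES pyloric Lgr5Hi cells and 9.35 ± 0.34 (n = 4) in pyloric Lgr5Lo cells. It was 9.41 ± 0.06 (n = 3) and 9.64 ± 0.07 (n = 3) in the same gates of colon, and 9.81 ± 0.10 (n = 2) and 10.00 ± 0.07 (n = 2) in those of small intestine. In DTR pylorus it read 8.92, 8.93 and 8.89 in Lgr5Hi, 9.16, 9.35 and 9.32 in Lgr5Lo and 9.33, 9.32 and 9.33 in Lgr5Neg arrays, so every Lgr5Hi array lay below every array of the other gates. The WT arrays were lowest, at 8.35, 8.47, 8.25 and 8.45 in Aqp5Pos and 8.82, 8.44, 8.62 and 8.78 in Aqp5Neg cells, and these groups overlapped. Levels between mouse models are set side by side only, since sort and model cannot be told apart.

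**Figure D1:**
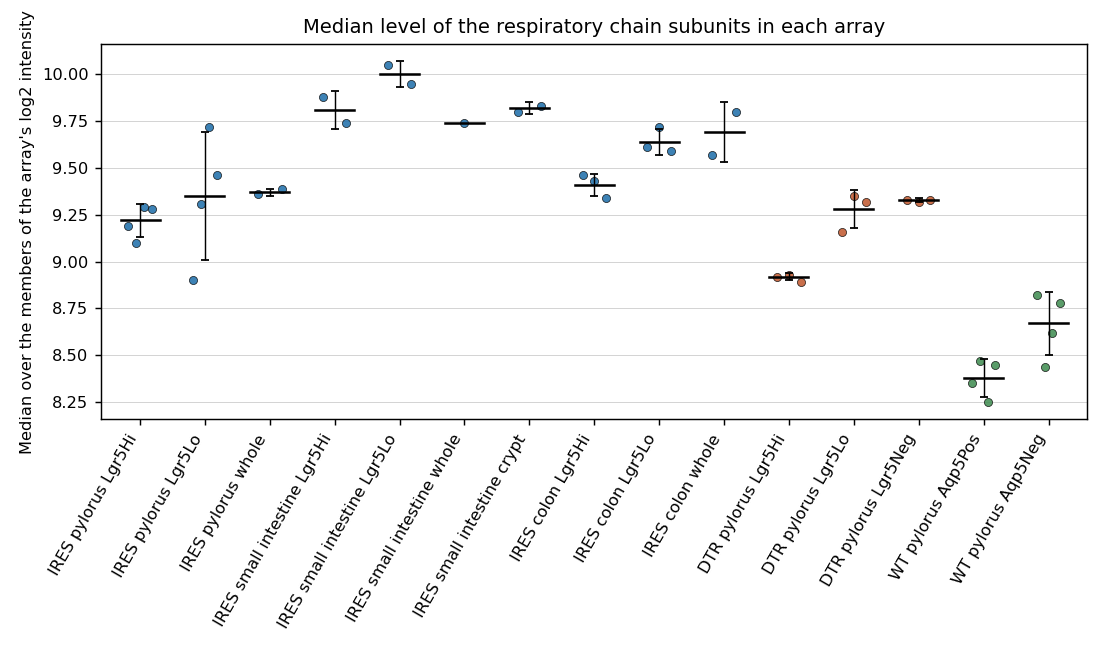
Median log2 intensity over the 82 members in each array (points), with the group mean (line) and SD (bars), by group. Blue points are IRES, orange DTR and green WT arrays; the DTR Lgr5Hi arrays sit between 8.89 and 8.93, below all DTR Lgr5Lo and Lgr5Neg arrays.

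Single members spread further than the median. The range of the 15 group means had a median of 1.36 over the members and 1.03 over all genes, and 12 members ranged by more than 2. Of the members, 63 had their highest group mean in a small intestinal group and 55 their lowest in WT cells, 43 of them in Aqp5Pos cells. The counts of 12, 63, 55 and 43 were not made over all genes, so whether they are particular to the members is not known. Small intestinal groups held only 1 or 2 arrays each. The 90th percentile over all genes was also lowest in WT cells, at 7.12 in Aqp5Pos and 7.36 in Aqp5Neg. Cox7a1 had the widest range, from 5.22 in DTR Lgr5Hi to 10.81 in IRES crypts, followed by Cox6b2 with 3.58, Ndufa11 with 3.19 and Ndufa2 with 3.04. The last 2 encode accessory subunits of complex I, and both were low in WT cells: Ndufa2 averaged 7.18 ± 0.88 (SD, n = 4) in Aqp5Pos cells and 9.70 ± 0.11 (n = 4) in IRES pyloric Lgr5Hi cells.

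In the DTR pylorus more members fell than rose in Lgr5Hi against Lgr5Neg cells, with falls in complexes I, III, IV and V. Of the 82 members, 28 fell and 2 rose (limma, adjusted p under 0.05 over all genes), where 9.48% of all genes fell and 8.84% rose, and 18.3% were called in all. These shares compare sets of unlike brightness: a filter on dim genes kept 73 of the 82 members but 11075 of the 22180 genes in DTR. The median difference was -0.31 over the members and 0.02 over all genes, and 69 members were below 0. In 48 members every Lgr5Hi array was below every Lgr5Neg array, as in 16.1% of all genes, and in 6 every one was above, as in 16.2%. The count of calls in either direction was 14 without Lgr5Neg replicate 3 and 15 without Lgr5Neg replicate 2, and it was 8 when the spread was estimated from all 42 arrays. Bulk RNA cannot tell fewer cells of a type from less of the RNA in each cell.

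Complex I, the entry point for NADH, had 13 falls and 1 rise among 34 members, with a median difference of -0.33. Ndufs4, needed for the assembly of the NADH-oxidising arm, read 8.56, 8.84 and 8.81 in Lgr5Hi, 9.10, 9.39 and 9.32 in Lgr5Lo and 9.54, 9.99 and 10.07 in Lgr5Neg arrays. The gates did not overlap, and Ndufs4 fell by 1.13 ± 0.17 (SE) between Lgr5Hi and Lgr5Neg cells (limma adjusted p = 0.000361). Ndufv2, an iron-sulfur subunit of the same arm, read 8.19, 8.47 and 8.29 in Lgr5Hi, 8.73, 8.88 and 8.79 in Lgr5Lo and 9.18, 9.19 and 9.32 in Lgr5Neg arrays. It too stepped up from gate to gate without overlap, and its difference between the outer gates was -0.91 ± 0.13 (adjusted p = 0.000328). Ndufs1, the largest subunit and an iron-sulfur protein, read 6.79, 7.58 and 7.45 in Lgr5Hi and 8.16, 8.30 and 7.96 in Lgr5Neg arrays, and fell by 0.87 ± 0.20 (adjusted p = 0.00685). Ndufab1, which is also the mitochondrial acyl carrier protein, fell by 0.76 ± 0.14, and the membrane arm subunits Ndufb6, Ndufb8 and Ndufb5 fell by 0.67, 0.53 and 0.50.

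Ndufa1, a small subunit of the membrane arm, went the other way. It read 11.18, 11.09 and 11.09 in Lgr5Hi, 10.81, 10.67 and 10.66 in Lgr5Lo and 10.47, 10.56 and 10.44 in Lgr5Neg arrays. Every Lgr5Hi array was above the rest, and the rise over Lgr5Neg cells was 0.63 ± 0.12 (adjusted p = 0.00272), called under all 13 other settings run for it. In IRES pylorus Ndufa1 also read higher in Lgr5Hi (11.26, 11.18, 11.27 and 11.03) than in Lgr5Lo arrays (10.76, 10.75, 10.82 and 10.79), without overlap. That difference, 0.41 ± 0.16, had an adjusted p of 0.242 and was not called.

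Complex II, which is also an enzyme of the tricarboxylic acid cycle, had no called member among 4 by limma, and 1, Sdhd, with an unadjusted p under 0.05. Sdha, its flavoprotein, read 9.36, 9.42 and 9.38 in Lgr5Hi and 9.58, 9.39 and 9.32 in Lgr5Neg arrays, which overlapped. Sdhd, a membrane anchor, read 7.91, 8.37 and 7.94 in Lgr5Hi, 8.37, 8.77 and 8.71 in Lgr5Lo and 8.53, 8.65 and 8.38 in Lgr5Neg arrays. Its difference from Lgr5Neg cells was -0.45 ± 0.17 (adjusted p = 0.0829), with the Lgr5Lo and Lgr5Neg arrays overlapping.

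All 9 members of complex III had a difference below 0 and 3 fell, with a median of -0.48. Cyc1, the cytochrome c1 that hands electrons to cytochrome c, read 9.35, 9.31 and 9.40 in Lgr5Hi, 9.64, 9.79 and 9.88 in Lgr5Lo and 9.97, 10.13 and 10.16 in Lgr5Neg arrays. The gates were apart, and Cyc1 fell by 0.73 ± 0.13 (adjusted p = 0.00138). The core proteins Uqcrc2 and Uqcrc1 fell by 0.52 ± 0.14 and 0.48 ± 0.13. Uqcrfs1, the Rieske iron-sulfur protein, had a difference of -0.50 ± 0.17 and was not called (adjusted p = 0.056).

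Complex IV, the oxygen-reducing oxidase, had 5 falls and 1 rise among 17 members, with 9 members below 0, 8 above and a median of -0.19. Cox7a2 read 10.05, 10.02 and 10.12 in Lgr5Hi, 10.35, 10.39 and 10.43 in Lgr5Lo and 10.65, 10.80 and 10.91 in Lgr5Neg arrays. The 3 gates were apart again, and Cox7a2 fell by 0.73 ± 0.13 (adjusted p = 0.00122). Cox7a1 read 5.61, 5.74 and 4.30 in Lgr5Hi and 6.06, 6.19 and 6.46 in Lgr5Neg arrays, with a difference of -1.02 ± 0.29 (adjusted p = 0.0276). Its size rests partly on Lgr5Hi replicate 3, and the call was lost in 3 of the 13 other settings, among them without Lgr5Neg replicate 2 and without Lgr5Neg replicate 3 (highest adjusted p = 0.108). Cox5a and Cox5b, which have no tissue-specific counterpart, fell by 0.53 ± 0.14 and 0.49 ± 0.14, and Cox6b1 fell by 0.43 ± 0.13. The Cox5b probe set read here correlated with the other Cox5b probe set at only r = 0.287 over the arrays. Cox6b2 rose, from 4.96, 4.66 and 4.72 in Lgr5Neg to 5.34, 5.27 and 5.52 in Lgr5Hi arrays, by 0.59 ± 0.15 (adjusted p = 0.0158), a call kept under 9 of 13 other settings. Cox4i1, Cox6a1 and Cox8a, the widely found forms of 3 paired subunits, were not called; Cox4i1 had a difference of -0.32 ± 0.14 (adjusted p = 0.133).

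Complex V had 7 falls and no rise among 18 members, all 18 below 0, with a median of -0.37. Atp5pb, a subunit of the stalk that holds the catalytic head in place, read 8.98, 9.18 and 8.97 in Lgr5Hi, 9.30, 9.47 and 9.51 in Lgr5Lo and 9.61, 9.67 and 9.80 in Lgr5Neg arrays. These groups were apart, and Atp5pb fell by 0.65 ± 0.13 (adjusted p = 0.00358). Atp5b, the catalytic beta subunit, read 10.88, 11.20 and 10.88 in Lgr5Hi and 11.50, 11.45 and 11.33 in Lgr5Neg arrays, and fell by 0.44 ± 0.14 (adjusted p = 0.0377). Atp5o, Atp5mpl, Atp5e, Atp5md and Atp5g3 fell by 0.59, 0.53, 0.44, 0.44 and 0.43.

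**Figure D2:**
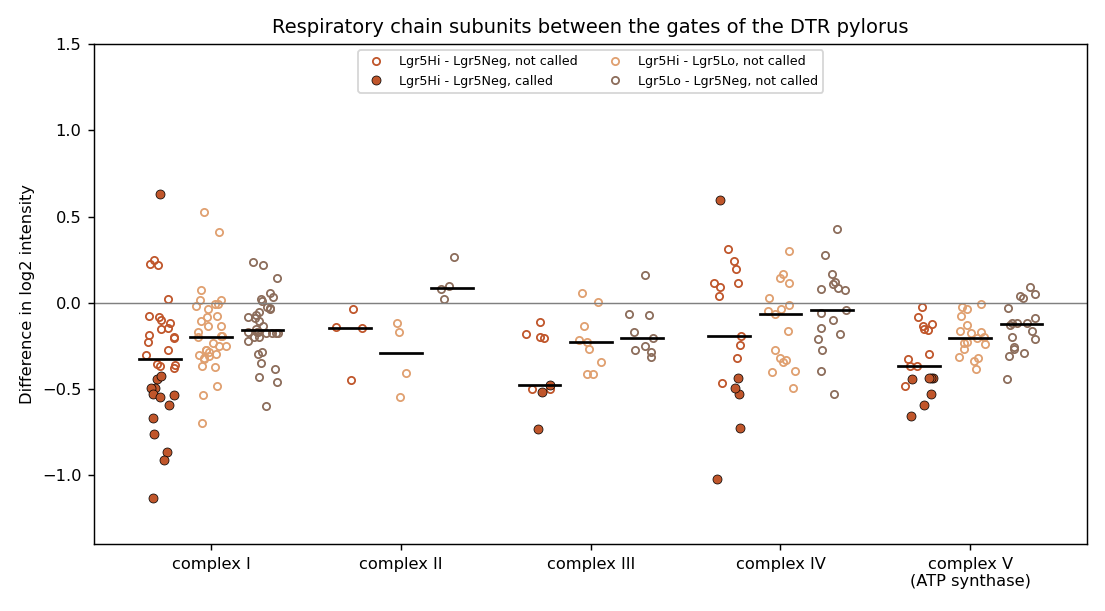
Difference in log2 intensity between the gates of the DTR pylorus for each member, by complex; filled points are called (limma adjusted p under 0.05), open points are not, and lines are medians. Called members appear only between Lgr5Hi and Lgr5Neg cells, 28 below 0 and 2 above.

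The Lgr5Lo cells lay between the outer gates for many members. Group means stepped up from Lgr5Hi through Lgr5Lo to Lgr5Neg in 54 of 82 members, against 25.1% of all genes, and stepped down in 8, against 27.5%. Neither neighbouring pair gave a call. Between Lgr5Hi and Lgr5Lo cells limma called 0 members (4.97% of all genes were called, 2.94% lower and 2.02% higher), with 24 lower and 2 higher at an unadjusted p under 0.05 (31.7% in all, against 17.6% of all genes) and a median of -0.20. Ndufv2 came closest, at -0.48 ± 0.13 (adjusted p = 0.0539). Limma with an intensity trend and robust variances called 12, among them Cyc1, Cox7a2, Atp5pb, Ndufs1 and Ndufs4, all lower, and Ndufa1, higher. Between Lgr5Lo and Lgr5Neg cells limma called 0 (2.2% of all genes were called, 0.631% lower and 1.57% higher), with a median of -0.12. At an unadjusted p under 0.05 stood 11 members (13.4%, against 13.3% of all genes). Of these, 10 were lower (12.2%, against 5.91% of all genes) and 1 was higher (1.22%, against 7.39%). Every Lgr5Lo array was below every Lgr5Neg array in 21 members and above in 4, against 10% and 11.7% of all genes. The trend and robust setting called 3 (Cox7a2, Ndufs4 and Ndufv2). The 3 DTR comparisons share arrays. The Lgr5Lo gate read highest for Atp4a and Atp4b, markers of parietal cells, the acid-secreting cells that are rich in mitochondria. Atp4a, a subunit of their proton pump, averaged 5.97 ± 0.81 (SD) in Lgr5Hi, 8.56 ± 0.33 in Lgr5Lo and 5.14 ± 0.43 in Lgr5Neg cells (n = 3 each). Atp4b averaged 5.27, 8.82 and 4.84. Both were called in each comparison with Lgr5Lo cells, and their part in the subunit values was not tested.

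Other mitochondrial genes were counted from fixed lists in the same comparison of DTR Lgr5Hi with Lgr5Neg cells, where 9.48% of all genes fell and 8.84% rose. Of 71 genes of the mitochondrial ribosome, which makes the subunits encoded in mitochondrial DNA, 45 fell and 1 rose, with a median of -0.65. Of 14 assembly factors of complex I, 9 fell and none rose, led by Ndufaf6 (-1.54 ± 0.26) and Ndufaf5 (-1.15 ± 0.22). Of 16 tricarboxylic acid cycle genes 12 fell and 1 rose, led by Idh3a, the NAD-dependent isocitrate dehydrogenase, at -1.12 ± 0.14. Of 19 assembly factors of complex IV 6 fell, and of 10 genes for ubiquinone and cytochrome c 5 fell, among them Cycs at -0.77 ± 0.12. Glycolysis had 7 falls and 1 rise of 14, and fatty acid oxidation had 2 falls of 13.

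Among 15 regulators of mitochondrial biogenesis 1 rose and 2 fell, a called share near the 18.3% of all genes. Ppargc1a, a coactivator of respiratory genes, read 8.13, 8.16 and 8.40 in Lgr5Hi, 7.65, 7.30 and 7.14 in Lgr5Lo and 6.23, 6.55 and 6.37 in Lgr5Neg arrays. It was highest where the subunits were lowest, without overlap, and rose by 1.85 ± 0.16 (adjusted p = 7.17e-06). Tfam, which packages and transcribes mitochondrial DNA, fell by 0.61 ± 0.18 (adjusted p = 0.0355). In WT Aqp5Pos cells Ppargc1a had a difference of 1.10 ± 0.29 from Aqp5Neg cells and was not called (adjusted p = 0.0693).

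Markers of other cell states moved with the DTR gates, in a comparison where 9.48% of all genes fell and 8.84% rose. All 11 measured genes of dividing cells fell between Lgr5Hi and Lgr5Neg cells, with a median of -1.54, and their mean level was 6.40 to 7.29 in Lgr5Hi, 8.05 to 8.38 in Lgr5Lo and 8.36 to 8.70 in Lgr5Neg arrays. All 5 pit cell markers fell (median -3.93), 5 of 6 tuft cell markers rose (median 1.75), and all 3 chief cell markers rose (median 3.98). Of 7 enterocyte markers Fabp2 and Alpi fell and none rose. Fabp2, a fatty acid carrier of absorptive cells, read 5.18 to 5.95 in Lgr5Hi, 7.08 to 8.69 in Lgr5Lo and 9.08 to 10.10 in Lgr5Neg arrays, without overlap, stepping in the same order as Ndufs4, Ndufv2 and Cyc1. Of 7 parietal markers 2 rose, Clic6 and Slc9a4, and of 9 smooth muscle and fibroblast markers none was called by limma, nor had any an unadjusted p under 0.05. The part of these markers in the subunit differences was not tested.

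In WT pylorus 2 members fell in Aqp5Pos against Aqp5Neg cells and none rose, where 2.25% of all genes fell and 0.546% rose. Cox7a1 read 5.79, 5.77, 5.40 and 5.28 in Aqp5Pos and 6.93, 6.91, 7.29 and 7.22 in Aqp5Neg arrays. The groups did not overlap, as in 14 members lower and 1 higher against 6.68% and 5.84% of all genes, and Cox7a1 fell by 1.53 ± 0.19 (limma adjusted p = 0.00181), a call kept under all 15 other settings. Ndufa9, an accessory complex I subunit, read 7.94, 8.81, 8.87 and 8.54 in Aqp5Pos and 9.44, 9.41, 9.45 and 9.49 in Aqp5Neg arrays, and fell by 0.91 ± 0.21 (adjusted p = 0.0413). That call was lost under 8 of 15 other settings, among them without Aqp5Pos replicate 1 or 4 and without any single Aqp5Neg replicate (highest adjusted p = 0.127).

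A further 15 members were lower in Aqp5Pos cells only at an unadjusted p under 0.05, and none was higher, with a median over all 82 of -0.16 against 0.06 over all genes. All lower members at this threshold made 20.7% of the 82, against 11.2% of all genes. The 90th percentile over all genes was also lower, at 7.12 ± 0.19 (SD, n = 4) in Aqp5Pos and 7.36 ± 0.05 (n = 4) in Aqp5Neg arrays. Cox7a2, for example, read 9.31, 8.98, 9.40 and 9.25 in Aqp5Pos and 10.10, 9.72, 9.50 and 10.18 in Aqp5Neg arrays, a difference of -0.64 ± 0.20 (adjusted p = 0.103). Estimating the spread from all 42 arrays gave 10 calls. Of the complex I assembly factors 3 of 14 fell (Ndufaf5, Ndufaf1 and Acad9), of the tricarboxylic acid cycle 1 of 16 (Cs, citrate synthase), and of the mitochondrial ribosome limma called 0 of 71, with 16 lower at an unadjusted p under 0.05. All 5 pit cell and 5 of 6 tuft cell markers fell, as did 2 of 11 genes of dividing cells and 2 of 7 enterocyte markers, Fabp1 and Fabp2. The 7 parietal markers had a mean level of 5.55 to 6.21 in Aqp5Pos and 6.65 to 7.55 in Aqp5Neg arrays, and 2 of them fell, Atp4a and Atp4b. The part of these markers and of the lower 90th percentile in the result was not tested.

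In IRES pylorus Cox7a1 alone fell between Lgr5Hi and Lgr5Lo cells, where 1.49% of all genes were called, 0.884% lower and 0.604% higher. It read 6.46, 5.71, 6.78 and 6.93 in Lgr5Hi and 7.99, 8.90, 8.83 and 8.68 in Lgr5Lo arrays. The gates did not overlap, as in 5 members lower and 1 higher against 2.95% and 2.21% of all genes, and the fall of 2.13 ± 0.36 (limma adjusted p = 0.00349) was called under all 17 other settings. Cox7a2, its widely found counterpart, read 10.64 to 11.30 in Lgr5Hi and 10.46 to 11.40 in Lgr5Lo arrays, which overlapped. With the replicate number as a block Sdhd fell as well, by 0.70 ± 0.15 (adjusted p = 0.0191), and 2 members were also called without Lgr5Hi replicate 3. The median difference over the members was -0.10 against -0.04 over all genes. The parietal marker mean was 6.37 to 6.91 in Lgr5Hi and 7.44 to 7.94 in Lgr5Lo arrays, with none of the 7 called by limma and 2 at an unadjusted p under 0.05. Atp4a read 7.99 to 9.64 in Lgr5Hi and 10.85 to 11.57 in Lgr5Lo arrays, without overlap, a difference of -2.53 ± 0.96 (adjusted p = 0.223), and the fit that gives this spread holds whole colon replicate 1 with 12.69 against 4.98 in replicate 2. All 7 enterocyte markers were below 0, none called by limma and 5 at an unadjusted p under 0.05, and Fabp2 read 6.63 to 10.49 in Lgr5Hi and 10.03 to 10.67 in Lgr5Lo arrays. Lyz1, a marker of Paneth cells, was 9.11 and 9.27 in replicate 4 of the gates against 3.59 to 6.96 in the other pyloric arrays sorted from IRES mice. Genes of dividing cells fell in 4 of 11, and the part of all these markers in the result was not tested.

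In the other organs no member was called between these gates. In small intestine limma called 0 members (0.104% of all genes fell and 0.0812% rose). At an unadjusted p under 0.05 stood 2 members (2.44%, against 4.69% of all genes). These were Cox7a1, at 7.99 and 8.59 in Lgr5Hi and 10.86 and 9.73 in Lgr5Lo arrays (adjusted p = 0.164), and Cox6b2, at 8.13 and 7.51 against 6.67 and 6.31 (1.33 ± 0.47, adjusted p = 0.597). The gates did not overlap in 17 members lower and 5 higher, against 15.8% and 19.7% of all genes. In colon limma called 0 members and 0% of all genes. With an unadjusted p under 0.05 were 3 members (3.66%), all lower in Lgr5Hi cells, against 4.51% of all genes, 2.66% lower. These were Cox8b (-0.997 ± 0.35), Sdhd (-0.54 ± 0.22) and Uqcr11 (-0.53 ± 0.25), each with an adjusted p of 1. Cox7a1 there read 9.68, 9.33 and 7.67 in Lgr5Hi and 9.47, 9.72 and 9.46 in Lgr5Lo arrays, which overlapped. In 22 members every colonic Lgr5Hi array was below every Lgr5Lo array and in 1 above, against 8.63% and 7.06% of all genes. Whether the fall of Cox7a1 differed between pylorus and colon was tested directly, giving -1.47 ± 0.55 (adjusted p = 0.399), and no member was called in either difference between organs. The count at an unadjusted p under 0.05 was 3 (3.66%) for pylorus against colon and 2 (2.44%) for pylorus against small intestine. At that threshold stood 8.41% and 7.38% of all genes, and 0.225% and 0.0316% were called.

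**Figure D3:**
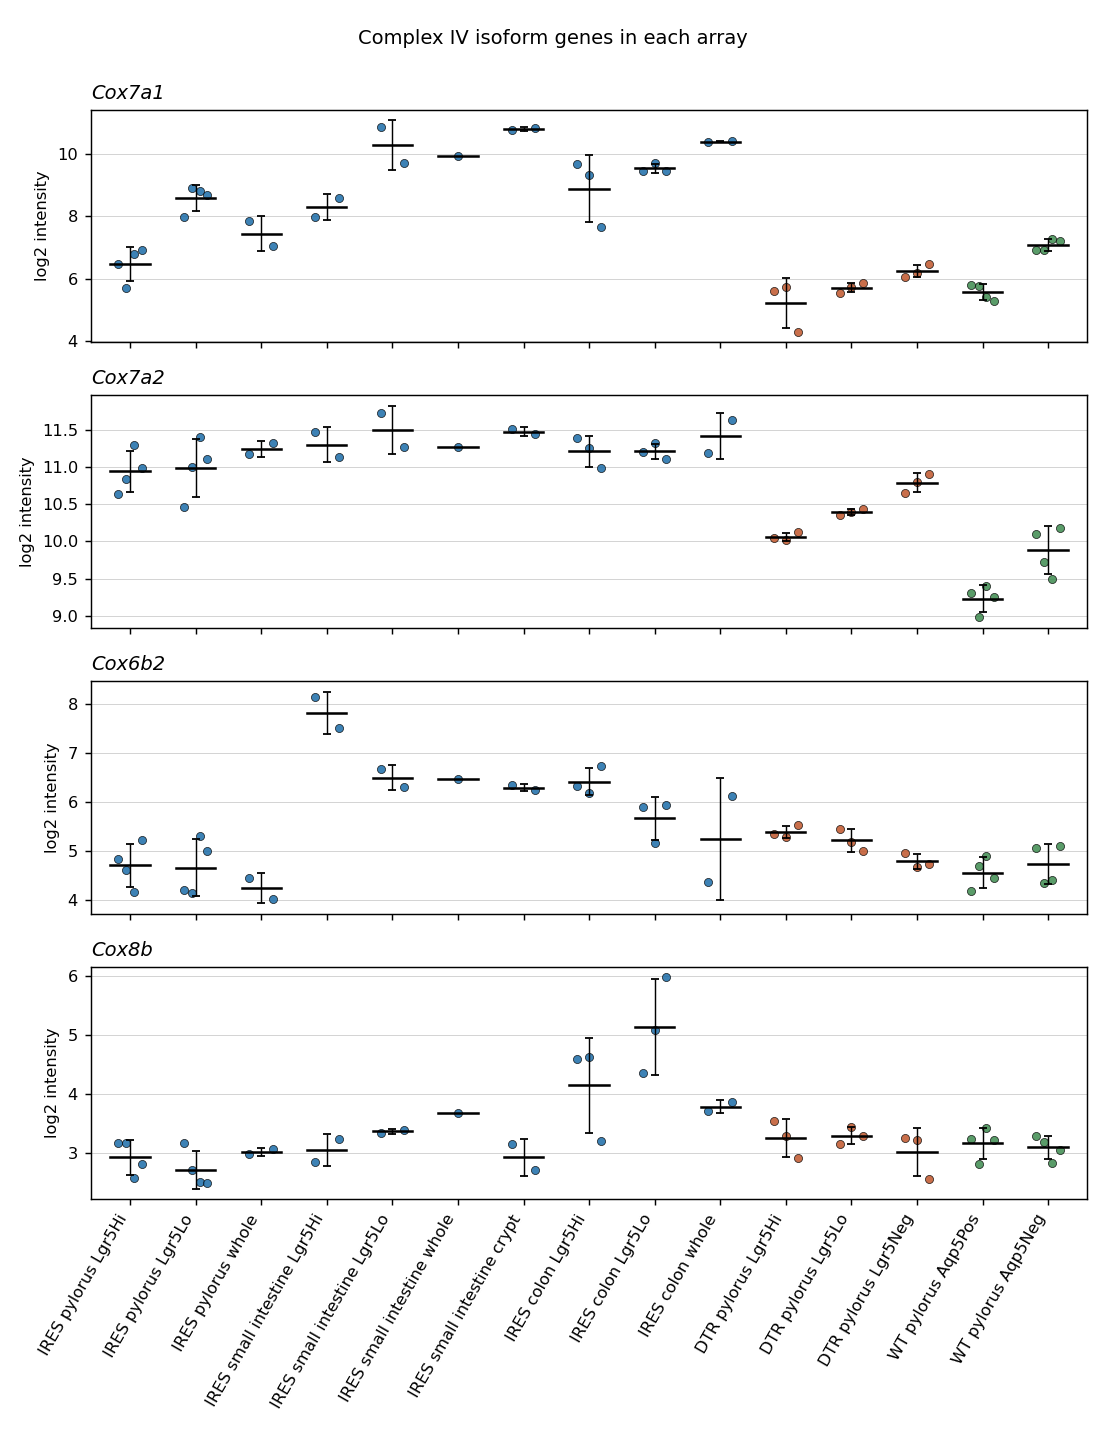
Log2 intensity of Cox7a1, Cox7a2, Cox6b2 and Cox8b in each array (points), with the group mean (line) and SD (bars). In IRES pylorus and WT pylorus the Lgr5Hi and Aqp5Pos arrays of Cox7a1 sit below the Lgr5Lo and Aqp5Neg arrays; Cox6b2 is highest in small intestinal Lgr5Hi cells and Cox8b in colon.

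Between organs, the share of members called lower was above that of all genes for pylorus against small intestine, where calls rested on few arrays. Among IRES Lgr5Hi cells 10 members were lower in pylorus than in small intestine and none was higher, where 7.74% of all genes were lower and 4.67% higher. In either direction 12.2% of members and 12.4% of all genes were called. The median difference was -0.35 over the members and 0.08 over all genes, and 71 members were below 0. The largest was Cox6b2, at 4.82, 4.60, 4.16 and 5.22 in pylorus and 8.13 and 7.51 in small intestine, a difference of -3.12 ± 0.41 (adjusted p = 1.41e-05). Cox7a1 (-1.82 ± 0.44) and Cox7c (-1.22 ± 0.33) of complex IV followed. The others were Cyc1, Uqcrc1 and Uqcrc2 of complex III, Ndufs1, Ndufs8 and Ndufab1 of complex I and Atp5g3, a subunit of the rotating ring of complex V, with differences from -0.96 to -0.68. Small intestine had 2 arrays per gate, and only 2 members were called without small intestine Lgr5Hi replicate 1 and 4 without replicate 2.

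The same pair of organs gave 29 of 71 mitochondrial ribosome genes, 6 of 14 complex I assembly factors and 6 of 16 tricarboxylic acid cycle genes lower in pylorus and none of them higher. Mrps22 had a difference of -1.90 ± 0.26, Ndufaf6 of -2.25 ± 0.43 and Idh3a of -1.79 ± 0.23. Ppargc1a was higher in pylorus by 1.62 ± 0.27 (adjusted p = 0.000287), and 3 of 14 glycolysis genes were higher, led by Ldhb, a lactate dehydrogenase subunit, at 2.15 ± 0.47. Of 7 enterocyte markers 5 and of 11 genes of dividing cells 10 were lower in pylorus. The mean level of the latter was 6.87 to 7.21 in pyloric and 8.45 to 8.53 in small intestinal Lgr5Hi arrays, and the part of these markers was not tested.

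Among Lgr5Lo cells 8 members were lower in pylorus than in small intestine and 1 was higher, where 4.43% of all genes were lower and 3.74% higher, with a median of -0.36 against 0.11. Lower were Cox6b2 (-1.83 ± 0.41), Cox7a1 (-1.69 ± 0.44), Cox7c (-1.26 ± 0.33), Uqcrq, Ndufa8, Atp5g3, Ndufb10 and Sdhb, the last 5 by 0.63 to 0.89. Cox4i2, the counterpart of Cox4i1 known from lung and low oxygen, was higher by 0.81 ± 0.21 (adjusted p = 0.0154), at 4.41 to 4.80 in pylorus and 3.85 and 3.66 in small intestine, both close to the array medians. Without small intestine Lgr5Lo replicate 1 none of the 82 was called by limma, without replicate 2 there were 4, and with quantile normalization 3 were.

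Against colon the called share of members was no higher than that of all genes. Among Lgr5Hi cells 3 (3.66%) members were lower in pylorus and none was higher, where 7.12% of all genes were called, 4.22% lower and 2.90% higher. They were Cox7a1 by -2.42 ± 0.39 (adjusted p = 0.000239), Cox6b2 by -1.71 ± 0.36 (adjusted p = 0.0032) and Cox8b by -1.22 ± 0.33 (adjusted p = 0.0251). Every pyloric array was below every colonic one in 16 members and above in 1, against 9.06% and 8.45% of all genes. With the replicate number as a block Cox5b (-0.86 ± 0.26) and Cox7b (-0.86 ± 0.25) were called too. The probe set read for each correlated with the other of its gene at only r = 0.287 and 0.405. At an unadjusted p under 0.05 stood 11 members (13.4%), below the 18.8% of all genes. They were 6 of 17 members of complex IV, 4 of 9 of complex III and 1 of 34 of complex I. Among Lgr5Lo cells Cox8b was lower by -2.42 ± 0.33 (adjusted p = 5.79e-05) and Cox4i2 was higher by 0.62 ± 0.18 (adjusted p = 0.0458), where 3.78% of all genes were lower and 2.57% higher. The Cox4i2 call against colon was lost under 9 of 15 other settings, among them without Lgr5Lo replicate 1, 2 or 4 of pylorus and without any single Lgr5Lo replicate of colon. That of Cox8b in Lgr5Hi cells was lost without Lgr5Hi replicate 3 or 4 of pylorus and without replicate 1 or 2 of colon (highest adjusted p = 0.17).

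Cox8b was highest in colon. It read 4.36, 5.09 and 5.98 in colonic Lgr5Lo and 4.60, 4.63 and 3.21 in colonic Lgr5Hi arrays, and 3.71 and 3.86 in whole colon. The gate difference in colon was not called, and its difference from the gate difference in pylorus was 1.21 ± 0.47 (adjusted p = 0.42), also not called. In pyloric and small intestinal arrays, including DTR and WT, group means were 2.72 to 3.69, below the array medians, where a level may be background. Between small intestinal and colonic Lgr5Lo cells Cox8b was the 1 member called, lower by -1.78 ± 0.40 (adjusted p = 0.00774), where 2.39% of all genes were lower and 2.08% higher. That call was lost without Lgr5Lo replicate 1 or 2 of small intestine and without replicate 3 of colon (highest adjusted p = 0.106). Its counterpart Cox8a read 10.95 to 11.27 in pyloric and 11.39 to 11.53 in colonic Lgr5Lo arrays.

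Between small intestinal and colonic Lgr5Hi cells limma called 0 members (2.6% of all genes were called, 1.28% lower and 1.32% higher), with a median of 0.24 against -0.02. At an unadjusted p under 0.05 stood 12 members (14.6%, against 12.3% of all genes). Of these, 11 were higher in small intestine (13.4%, against 6.45% of all genes) and 1 was lower (1.22%, against 5.81%). Every small intestinal array was above every colonic one in 30 members and below in 0, against 16.7% and 16.2% of all genes. Cox6b2 had a difference of 1.41 ± 0.43 (adjusted p = 0.093), called once whole colon replicate 1 was left out of the fit (adjusted p = 0.0259), and 1 member was called without colon Lgr5Hi replicate 3. With the replicate number as a block Ndufb11 was called, higher by 1.33 ± 0.29 (adjusted p = 0.0137). Among Lgr5Lo cells of these 2 organs the median was 0.21 against -0.03 over all genes. At an unadjusted limma p under 0.05, 8 members were higher in small intestine (9.76%, against 6.88% of all genes) and 1 was lower (1.22%, against 7.6%). Every small intestinal Lgr5Lo array was above every colonic one in 33 members and below in 5, against 17.3% and 20.6% of all genes. The comparisons between organs share arrays with each other and with those between gates.

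**Figure D4:**
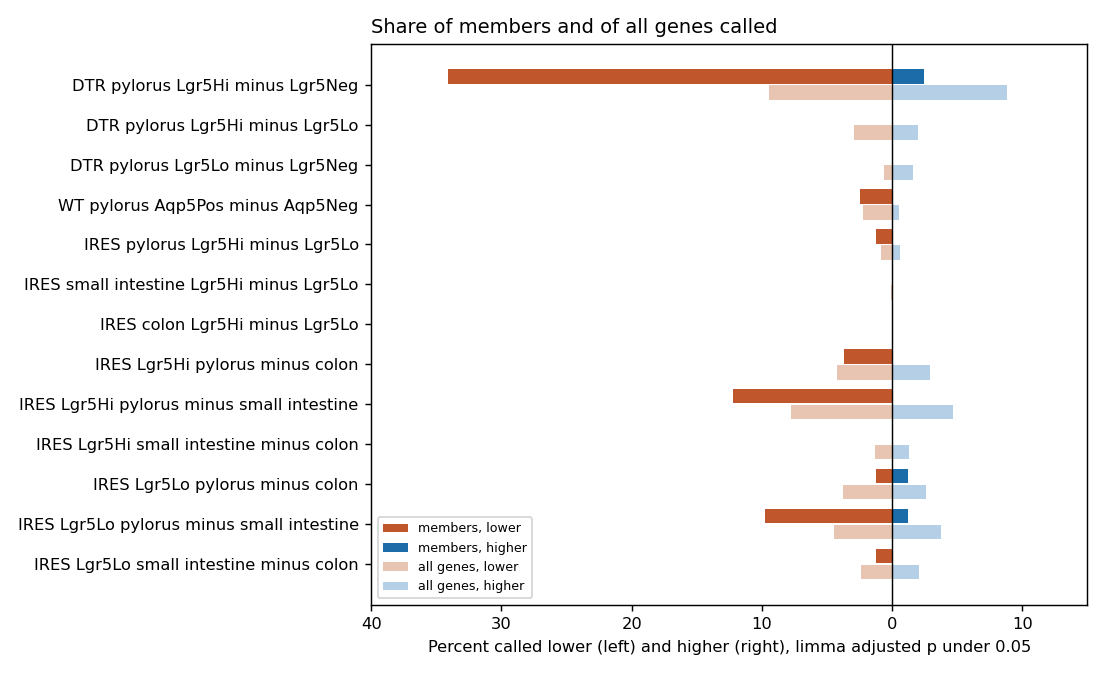
Percent of the 82 members (dark bars) and of all 22180 genes (pale bars) called lower (left) or higher (right) by limma in each comparison. In DTR Lgr5Hi against Lgr5Neg cells 34.1% of members and 9.48% of all genes fell. The set of all genes holds a larger share of dim genes than the members do.

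Of the paired subunits, several forms best known from other tissues had low readings in most groups. Such a reading does not rank a gene below others, since Ndufs5 and Atp5g1 averaged only 4.16 and 4.34 over all arrays. Cox6a2, the muscle form of Cox6a1, read 3.88 to 5.64 over the sorted arrays, Cox7b2 averaged 1.68 to 2.24 and Cox8c 2.39 to 2.80 in the sorted groups, and Ndufa4l2, a relative of Ndufa4, read 2.92 to 4.20 over the sorted arrays. None of these 4 was called between any groups compared. Cox7a1 was not among the low ones everywhere. It was above 7 in all sorted small intestinal and colonic arrays and also in the IRES pyloric Lgr5Lo arrays (7.99 to 8.90). It was below 6 in the DTR Lgr5Hi and WT Aqp5Pos arrays and also in the DTR Lgr5Lo arrays (5.55 to 5.85).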

How the data were processed

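The values deposited by the authors are log2 intensities, 1 for each probe set of an Affymetrix mouse array. Per the submitters' processing notes they come from RMA, and limma 3.26.8, R 3.2.3, oligo and Partek are also named there, with no order or role. Per the labels, RNA of sorted cells was amplified to cDNA and biotin-labelled. The genome build behind the probe annotation is not given in the sources used here. No detection calls were used, so a level near the array median may be background.

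The array holds 41345 probe sets. A single symbol was listed for 23521 of them, more than 1 for 1814 and no symbol for 16010. Those with a single symbol gave 22180 genes, and 1082 genes with more than 1 probe set were read from the brightest on average. This holds for 9 members, whose probe sets correlated over 42 arrays from r = 0.097 (Atp5h) to 0.974 (Atp5g2). Subunits found only on shared probe sets (9 symbols, among them Cox6c, Ndufs6 and Uqcr10) were left out, and subunits encoded in mitochondrial DNA and red cell markers are not analysed here.

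Group means were estimated separately for each mouse model (limma 3.58.1 under R 4.3.3, eBayes, Benjamini-Hochberg over all genes), with 15 residual degrees of freedom for IRES and 6 each for DTR and WT. Called means an adjusted p under 0.05. Since no label ties replicates to animals, p-values reflect only how far these samples spread. The fit was tested on simulated data. Members, lists and tests were chosen with earlier results of these data known. Differences with tests are given for up to 10 rises and 10 falls per comparison, for isoform and core subunits, and for up to 3 called genes per list.

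Equally numbered arrays deviated together from their group means in IRES pylorus (r = 0.162, 0.104, 0.273 and 0.296) and colon (0.176, 0.136 and 0.242), so values blocked by replicate are printed there where a call changes. In small intestine r was 0.373 for both replicates. With 2 arrays per gate their deviations mirror each other, so the 2 values are equal by construction. Between DTR Lgr5Hi and Lgr5Neg the correlations were 0.105, 0.061 and 0.123, not all above 0.1, and in the other DTR and WT pairs the signs were mixed, so these DTR and WT pairs were treated as unpaired. Alternatives were the block, 1 fit over all arrays, trend and robust variances, median centring, a filter on dim genes, the mean of probe sets and leaving out arrays. Quantile normalization and a fit without the doubted unsorted arrays were chosen after seeing the data. Gene names come from the platform annotation, and all 82 members matched RefSeq.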

Additional observations from a re-analysis of the deposited data

How the results depend on the processing

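No result reversed. Counts of called members moved by over 1.5 times as follows. With the replicate block they were 2 for DTR Lgr5Hi against Lgr5Lo, 1 for DTR Lgr5Lo against Lgr5Neg, 1 for WT, 2 for IRES pylorus, 5 for Lgr5Hi pylorus against colon and 1 for Lgr5Hi small intestine against colon. In DTR and WT mice the replicates share only a number. With 1 fit over all arrays they were 8 for DTR Lgr5Hi against Lgr5Neg, 10 for WT, 3 for IRES pylorus, 1 for IRES small intestine, 6 and 4 for Lgr5Hi and Lgr5Lo pylorus against colon and 2 for small intestine against colon in each gate. Trend and robust variances gave 12 for DTR Lgr5Hi against Lgr5Lo and 3 for DTR Lgr5Lo against Lgr5Neg, and the dim filter, which kept 73 members in DTR and IRES and 74 in WT, gave 7 and 1, and 0 for Lgr5Lo pylorus and Lgr5Lo small intestine against colon, where it removes Cox8b and Cox4i2. Median centring gave 1 for Lgr5Lo pylorus against colon, and the mean of probe sets gave 1 for DTR Lgr5Lo against Lgr5Neg. Quantile normalization, chosen after seeing the data, gave 2 for DTR Lgr5Hi against Lgr5Lo, 1 for WT, 1 for Lgr5Lo pylorus against colon and 3 for Lgr5Lo pylorus against small intestine. Without whole colon replicate 1, 1 member was called for Lgr5Hi small intestine against colon. Without all doubted unsorted arrays, also chosen later, that count was 1 and Lgr5Lo pylorus against colon gave 1. Beyond these constructions the cause was not tested.

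Leaving out 1 array gave 14 to 28 for DTR Lgr5Hi against Lgr5Neg, 0 to 3 against Lgr5Lo, 0 to 1 for DTR Lgr5Lo against Lgr5Neg, 1 to 2 for WT and IRES pylorus, 2 to 3 for Lgr5Hi pylorus against colon, 2 to 9 against small intestine and 0 to 1 for Lgr5Hi small intestine against colon. For Lgr5Lo cells it gave 1 to 2 for pylorus against colon, 0 to 11 for pylorus against small intestine and 0 to 1 for small intestine against colon. The number of arrays limits the precision, most of all in small intestine with 2 per gate.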
